A study of Bos taurus with 10 samples.

Results

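The 10 genes examined here belong to gluconeogenesis and the amino acid breakdown that feeds it, and were read in udder tissue of 10 cows. They are SDS, SDSL, PCK1, PCK2, PC, FBP1, GPT2, GOT1, GOT2 and TAT, that is 10 of the 9155 genes that the array annotation names through probe sets with 1 symbol. Every probe set whose only symbol is one of these genes was taken, which gave 14 probe sets. The genes were chosen with the differences of SDS and PCK2 between neighboring and control tissue already known, so the values of that contrast are given as a description, with no p for a member and nothing drawn from a count of members that met a threshold. Probe sets in the lowest 40% by their mean over the 10 arrays, which lay below 5.71 on the log2 scale, were left out of the tests. Of the 14 member probe sets, 10, of 8 genes, were kept, and 4 lay under this filter, namely those of SDSL and PCK1 and a pair of the PC probe sets.

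The cows were primiparous German Holstein Frisian animals in mid lactation with a synchronized oestrus. In the 5 neighboring cows, 500 CFU of E. coli 1303 in 2 ml saline had been given into another gland of the same udder, and tissue was taken 24 h later from glands that had received no bacteria. The 5 control cows were healthy and had received neither bacteria nor saline. Each neighboring sample pooled a saline-treated with an untreated gland, except neighboring 4, which was a single untreated gland, so saline and the distant infection cannot be told apart in the pooled samples. Some control samples were pooled from a pair of glands as well. Each cow gave 1 array, and the inoculated glands were not analysed here. The study set aside neighboring 5 as a biological outlier and control 3 as a technical outlier. Differences are therefore given on the other 8 arrays, 4 per group, and on all 10. Since neighboring 5 was set aside for its expression profile, the spread on the 8 arrays leaves that animal out.

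Gluconeogenesis builds glucose from lactate, propionate, glycerol and the carbon skeletons of amino acids, in the liver and the kidney. Serine dehydratase turns serine into pyruvate and ammonia, and transaminases move the amino groups of alanine, aspartate and tyrosine onto keto acids. Pyruvate carboxylase makes oxaloacetate from pyruvate inside mitochondria, phosphoenolpyruvate carboxykinase turns oxaloacetate into phosphoenolpyruvate, and fructose-1,6-bisphosphatase removes a phosphate near the end of the route. The lactating udder takes up glucose from blood to make lactose. Several of these enzymes also serve other routes, such as glycerol, citrate and non-essential amino acid synthesis.

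Signals are log2 values from the robust multi-array average (RMA), in which a step of 1 is a doubling of the signal, and levels of different probe sets are not compared. Array medians lay between 6.25 and 6.27, which RMA brings about by forcing all arrays onto one distribution, so they are no check of the arrays. Hybridization controls, which are bacterial and phage transcripts added before hybridization, differed with the groups. Their mean over 18 probe sets was 10.20 to 10.43 on neighboring 1 to 4 and 10.42 to 10.84 on control 1, 2, 4 and 5. Signal of the 3′ minus the 5′ probe set of GAPDH, a sign of RNA length, was 0.66 to 0.80 on those neighboring arrays and 0.70 to 0.94 on those control arrays. That of actin ran the other way, at 0.89, 1.15, 1.57 and 1.04 on neighboring 1 to 4 and 1.16, 1.09, 0.94 and 0.83 on control 1, 2, 4 and 5, highest on neighboring 3. The part of any of these in the differences below was not tested. A fit with the hybridization controls as a covariate is given below. Since these controls ran with the groups, that fit has wider errors and cannot divide a difference between them and the group. In tissue samples, fewer cells of a type and less RNA per cell cannot be told apart.

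SDS, the serine dehydratase, had the largest difference of all members. Its probe set Bt.5878.1.A1_at read 9.67, 9.60, 10.28 and 9.19 on neighboring 1 to 4 and 6.61 on neighboring 5. Controls 1 to 5 read 5.92, 5.90, 5.98, 5.66 and 5.59. The lowest neighboring array lay above the highest control array, with neighboring 5 far below its group and close to the controls. On 8 arrays the mean was 9.69 ± 0.45 (SD, n = 4) in neighboring and 5.77 ± 0.17 (SD, n = 4) in control tissue, a difference of 3.92 ± 0.19 (SE) or 15.1-fold. On all 10 arrays it was 3.26 ± 0.52 (SE) or 9.58-fold. The wider error came with neighboring 5, which stood 0.84 above the control mean, or 21.6% of the 8-array difference.

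The other SDS probe set, Bt.5878.2.S1_at, showed the same separation. It read 9.01, 8.90, 9.97, 8.80 and 6.51 on neighboring 1 to 5 against 5.80, 5.78, 5.85, 5.91 and 6.14 on controls 1 to 5. Neighboring 3 was again the highest array and neighboring 5 the lowest of its group. The difference was 3.26 ± 0.22 (SE) on 8 arrays, or 9.60-fold, and 2.74 ± 0.47 (SE) on 10. In control tissue both SDS probe sets lay close to the filter, where RMA values compress fold changes.

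SDSL, the serine dehydratase-like gene next to SDS in the bovine genome, did not share its pattern. It read 4.73, 5.27, 5.12, 5.04 and 5.03 on neighboring 1 to 5 and 4.84, 4.59, 4.50, 4.37 and 4.82 on controls 1 to 5. All values lay under the filter and the groups overlapped, since neighboring 1 fell below controls 1 and 5. Its difference was 0.39 ± 0.14 (SE) on 8 arrays and 0.42 ± 0.12 on 10.

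PCK2, the mitochondrial phosphoenolpyruvate carboxykinase, had the next largest difference among the members. Its probe set Bt.12769.1.S1_at read 11.10, 10.35, 10.63, 11.06 and 8.64 on neighboring 1 to 5, against 8.34, 7.86, 8.89, 8.32 and 8.34 on controls 1 to 5. Neighboring 1 to 4 all lay above every control array, while neighboring 5 lay below control 3. On 8 arrays the means were 10.79 ± 0.36 and 8.22 ± 0.24 (SD, n = 4), which differ by 2.57 ± 0.18 (SE) or 5.93-fold. On all 10 arrays the difference was 2.00 ± 0.39 (SE) or 4.01-fold, and the groups overlapped. Neighboring 5 stood 0.42 above the control mean, 16.5% of the 8-array difference, and control 3 stood 0.67 above it.

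PCK1, the cytosolic form of that enzyme and the one best known from fasting liver, lay under the filter on every array. It read 4.49, 4.32, 3.81, 4.71 and 4.11 on neighboring 1 to 5 and 4.42, 4.27, 4.47, 4.45 and 4.48 on controls 1 to 5. The groups overlapped, and the difference was -0.07 ± 0.17 (SE) on 8 arrays with a 95% interval from -0.44 to 0.30. The interval of PCK2 ran from 2.18 to 2.96.

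**Figure D1:**
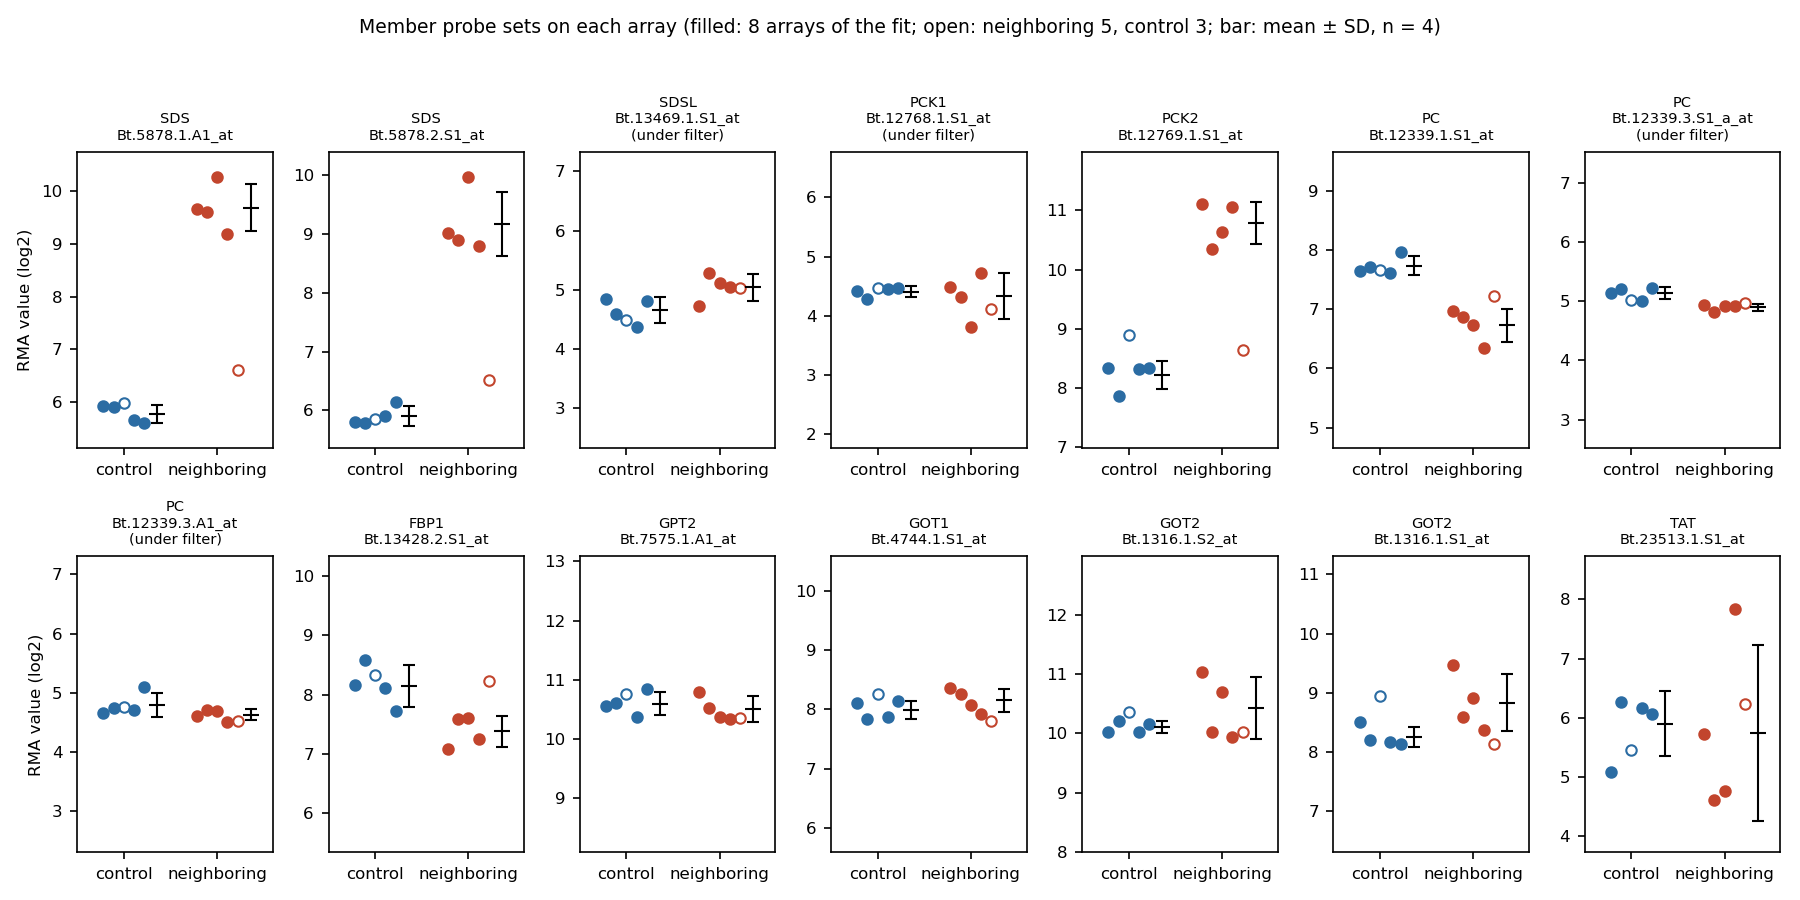
RMA value (log2) of each member probe set on each array, 1 panel per probe set with an axis span of at least 5 log2 units. Filled points are the 8 arrays of the fit, open points are neighboring 5 and control 3, and bars are mean ± SD (n = 4); neighboring 1 to 4 stand clear of the controls for SDS (9.19 to 10.28 against 5.59 to 5.98) and PCK2, and neighboring 5 lies near the controls.

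PC, the pyruvate carboxylase that supplies oxaloacetate, was lower in neighboring tissue. The kept probe set Bt.12339.1.S1_at read 6.96, 6.87, 6.73, 6.34 and 7.23 on neighboring 1 to 5 and 7.65, 7.71, 7.66, 7.62 and 7.965 on controls 1 to 5. All 5 neighboring arrays lay below all 5 control arrays. Its difference was -1.01 ± 0.14 (SE) on 8 arrays and -0.89 ± 0.15 on 10, and neighboring 5, at -0.51 from the control mean, held 50.1% of it, a larger share than for SDS or PCK2. The other PC probe sets lay under the filter. Of these, Bt.12339.3.S1_a_at differed by -0.25 ± 0.09 (SE) with groups that did not overlap, and Bt.12339.3.A1_at by -0.17 ± 0.12 with groups that did.

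FBP1, a fructose-1,6-bisphosphatase which acts near the end of the route, was lower on the same 4 neighboring arrays. It read 7.07, 7.58, 7.61, 7.24 and 8.23 on neighboring 1 to 5 against 8.17, 8.59, 8.32, 8.10 and 7.73 on controls 1 to 5. Neighboring 5 lay within the control range, 0.09 above the control mean. The difference was -0.77 ± 0.18 (SE) on 8 arrays without overlap and -0.63 ± 0.21 on 10 arrays with it. Both FBP1 and PC thus lay in the opposite direction from SDS and PCK2.

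The transaminases had smaller differences, and each of their probe sets overlapped between the groups. GPT2, the mitochondrial alanine transaminase, read 10.80, 10.52, 10.37, 10.33 and 10.35 on neighboring 1 to 5 and 10.56, 10.62, 10.76, 10.37 and 10.84 on controls 1 to 5, a difference of -0.09 ± 0.13 (SE) on 8 arrays. GOT1, the cytosolic aspartate transaminase, ran from 7.80 to 8.36 in neighboring and from 7.84 to 8.26 in control tissue and differed by 0.16 ± 0.12. The 95% intervals, -0.39 to 0.20 for GPT2 and -0.11 to 0.44 for GOT1, hold 0 and stop short of a doubling in either direction.

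GOT2, the mitochondrial aspartate transaminase, was read by 2 probe sets that did not give the same size. Bt.1316.1.S1_at read 9.47, 8.59, 8.90, 8.37 and 8.14 on neighboring 1 to 5 and 8.51, 8.20, 8.94, 8.17 and 8.14 on controls 1 to 5, a difference of 0.58 ± 0.20 (SE) on 8 arrays and 0.30 ± 0.23 on 10. Bt.1316.1.S2_at differed by 0.32 ± 0.21 and 0.19 ± 0.20. In both, neighboring 1 and 3 were the highest of their group, and control 3 was the highest control.

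TAT, the tyrosine transaminase known as a glucocorticoid-induced liver enzyme, had the widest spread of all members within each group of 4 arrays. It read 5.73, 4.61, 4.77, 7.84 and 6.23 on neighboring 1 to 5 and 5.08, 6.27, 5.46, 6.17 and 6.06 on controls 1 to 5. Neighboring 4, the single untreated gland, was the highest array and neighboring 2 and 3 were the lowest. The mean of TAT over the 10 arrays, 5.82, lay close to the filter at 5.71, with neighboring 4 raising it. The difference was -0.16 ± 0.59 (SE) on 8 arrays, with an SD of 1.49 among the 4 neighboring and 0.55 among the 4 control arrays, and it was -0.86 without neighboring 4.

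**Figure D2:**
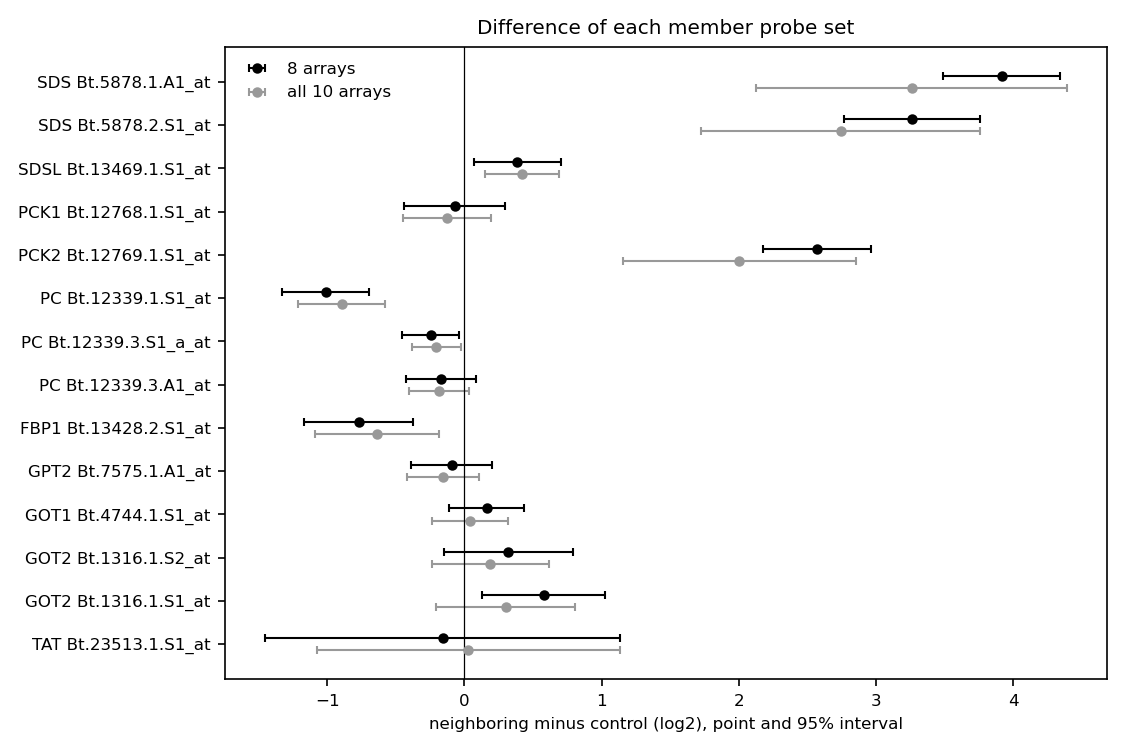
Neighboring minus control (log2) for the 14 member probe sets on 8 arrays (black) and all 10 arrays (grey), as points with 95% intervals from the fit across all probe sets. SDS and PCK2 lie between 2.00 and 3.92, the kept PC probe set and FBP1 lie below 0, and the intervals of SDS and PCK2 widen when neighboring 5 and control 3 enter.

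Across the array, 29.7% of the 14409 kept probe sets passed an adjusted p under 0.05 by limma on the 8 arrays. Over the same 14409, 17.7% passed as higher and 12% as lower in neighboring tissue, and 12.5% passed on all 10 arrays in either direction. Of the 10 kept member probe sets, 3 met that threshold as higher, those of SDS and PCK2, and 2 as lower, those of PC and FBP1. With all 10 arrays 4 met it. The groups did not overlap in 6 of the 14 member probe sets on 8 arrays, beside 25.4% of all 24016 probe sets, and in 4 of 14 on all 10 arrays, beside 5.89%. Since the members were chosen on this contrast, nothing is read from these counts.

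Patterns over the single arrays differed between SDS and PCK2. SDS was highest on neighboring 3, whereas PCK2 was highest on neighboring 1 and 4. To compare patterns, values of each probe set were rescaled from 0 on its lowest to 1 on its highest array, and the mean absolute difference was taken over the 10 arrays. The SDS probe sets differed from each other by 0.06 on this scale and SDS from PCK2 by 0.13 (medians over 2489 probe sets with a range of at least 1 log2 unit, 0.36 for SDS and 0.35 for PCK2). These are descriptions over arrays that fall into groups, so much of each likeness is the shared step between the groups.

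The kept probe sets most like SDS were those of ANKRD12 (mean absolute difference 0.0673), an ankyrin repeat protein, PHGDH (0.0682), which opens serine synthesis, LONP2 (0.0697), a peroxisomal protease, MTHFD2 (0.0702), which handles folate-bound carbon in mitochondria, and ERI1 (0.0706), an exoribonuclease. Those most like PCK2 were a pair of MTHFD2 probe sets (0.0486 and 0.0607), GHITM (0.0559), a protein of the inner mitochondrial membrane, GARS1 (0.0576), the glycyl-tRNA synthetase, and MRPS35 (0.0657), a mitochondrial ribosomal protein. MTHFD2 Bt.20862.1.A1_at, the likest to PCK2, read 8.70 to 8.92 on neighboring 1 to 4, 6.73 on neighboring 5 and 5.98 to 6.87 on the 5 controls. GARS1 read 11.53 to 12.07, 10.14 and 9.44 to 10.14 on the same arrays. In all of these, as in SDS and PCK2, neighboring 5 was the lowest of the neighboring arrays.

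**Figure D3:**
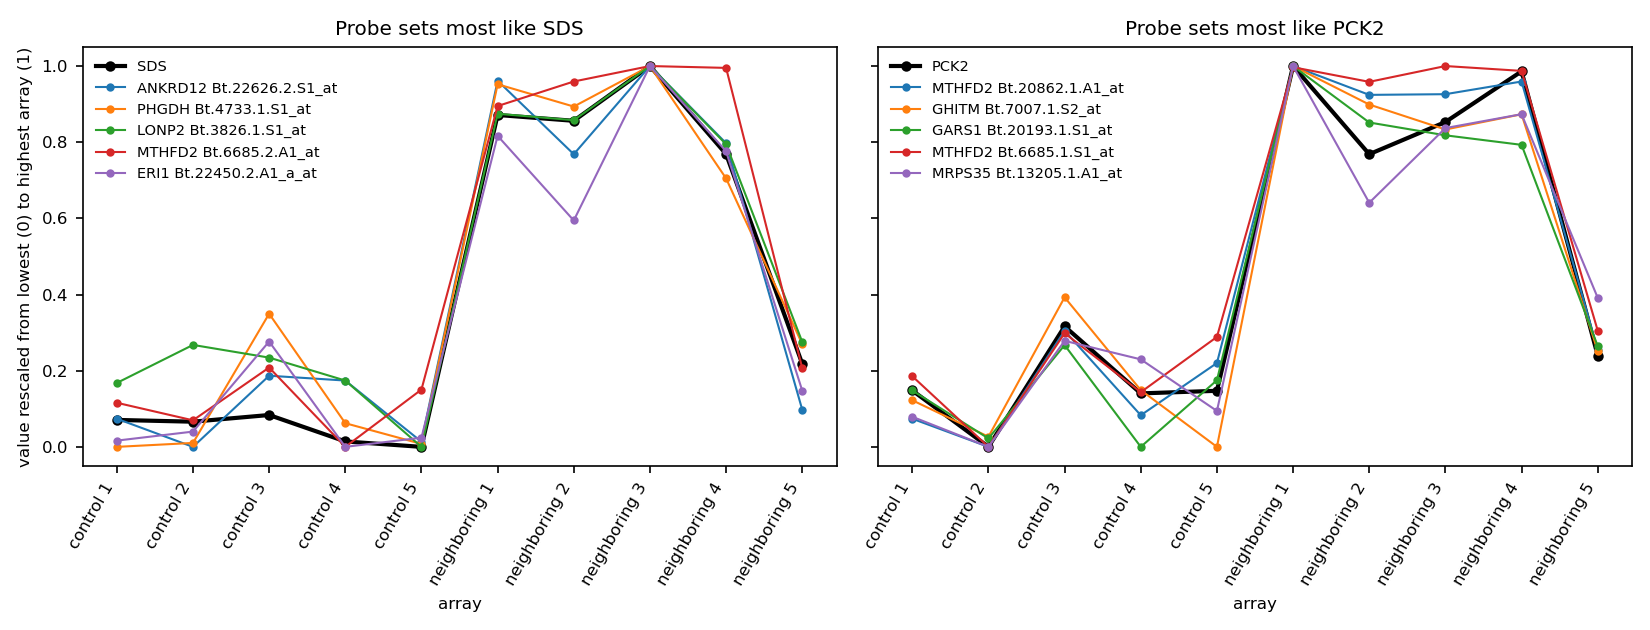
Values of SDS (left) and PCK2 (right, both black) and of the 5 probe sets most like each, rescaled from 0 on the lowest to 1 on the highest of the 10 arrays; lines only join points of a probe set, since the arrays have no order. Every curve is high on neighboring 1 to 4 and falls on neighboring 5, with mean absolute differences from SDS of 0.0673 to 0.0706 and from PCK2 of 0.0486 to 0.0657.

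Genes with a probe set that lie next to SDS and PCK2 in the bovine assembly ARS-UCD2.0 did not share their differences. SDS lies between SDSL and PLBD2, a phospholipase B-like gene, which differed by 0.20 ± 0.11 (SE) on 8 arrays. DCAF11, beside PCK2, differed by -0.03 ± 0.12. RCE1, beside PC, differed by 0.31 ± 0.12, and AOPEP, beside FBP1, by 0.19 ± 0.11. FBP2, on the other side of FBP1 and under the filter, differed by -0.53 ± 0.30, the same direction as FBP1. These 5 had overlapping groups, and NRL, on the other side of PCK2, and LRFN4, on the other side of PC, had no probe set. Among the neighbors of the remaining members with a kept probe set, SLC38A7, an amino acid transporter gene beside GOT2, differed by 1.59 ± 0.40 without overlap, more than GOT2 itself, and C18H16orf87, beside GPT2, by 0.73 ± 0.23 with overlap. Both were chosen after their values were seen.

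Genes around the members were taken from 5 lists of 123 genes, of which 99 had a probe set and 76 had one that was kept. On 8 arrays 21 of the 76 rose and 12 fell in neighboring tissue (adjusted p under 0.05 by limma, 43.4% beside the 29.7% of all kept probe sets), with a median difference of 0.09 beside 0.03 over all kept probe sets. These shares differ in unit, since a listed gene counts once, by its brightest kept probe set. The lists were also chosen with earlier results of these data known, so nothing is read from the gap between the shares. All 10 arrays gave 12 higher and 9 lower. Adjusted p values below are those on 8 arrays unless all 10 are named. For the genes with the lowest of them, all 10 arrays gave larger values by limma. These were 0.0046 for ATF5, 0.0219 for PHGDH, 0.0196 for CBS, 0.0288 for TRIB3 and 0.0291 for ALDOC. With the hybridization controls as a covariate 5 passed as higher and 0 as lower by limma, with 18 higher and 14 lower at an unadjusted p under 0.05. The 5 that passed were PHGDH, CBS, ATF4, ATF5 and TRIB3. Under the same covariate the member differences were 3.66 ± 0.33 and 2.91 ± 0.38 (SE) for SDS, 2.59 ± 0.32 for PCK2, -1.04 ± 0.26 for PC and -0.87 ± 0.32 for FBP1.

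Genes of serine and glycine supply make or divert serine, the substrate of SDS. Of 8 kept genes 4 rose and 1 fell, with a median of 0.40, and 3 rose and 1 fell on all 10 arrays. PHGDH, the first enzyme of serine synthesis, read 9.37 to 9.87 on neighboring 1 to 4 and 8.63 on neighboring 5, against 8.18 to 8.28 on controls 1, 2, 4 and 5 and 8.77 on control 3, and rose by 1.47 ± 0.12 (SE) on 8 arrays (adjusted p = 6.3e-05). PSPH, the last enzyme of that route, rose by 2.21 ± 0.49 (adjusted p = 0.0083), with controls spread from 6.50 to 9.01, and its other probe set rose by 1.83 ± 0.36. PSAT1, the enzyme between them, rose by 0.81 ± 0.15 (adjusted p = 0.0041), and on all 10 arrays it did not pass (adjusted p = 0.112).

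AMT, a subunit of the glycine cleavage system, fell by 0.55 (SE 0.12, adjusted p = 0.0076). SHMT1, which interconverts serine and glycine in the cytosol, rose by 0.52 ± 0.14 (adjusted p = 0.0208). SHMT1 and, below, all genes given beyond the 4 largest differences of a list were chosen after their values were seen.

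Of the other genes of amino acid breakdown, 7 of 23 kept rose and 3 fell (5 and 2 on all 10 arrays), with a median of 0.11. CBS, which joins serine with homocysteine in transsulfuration, read 8.29 to 8.61 on neighboring 1 to 4, 7.48 on neighboring 5 and 6.91 to 7.49 on the 5 controls, and rose by 1.36 ± 0.12 (SE, adjusted p = 9.5e-05). DBT, the core subunit of the branched-chain keto acid dehydrogenase, rose by 1.09 ± 0.18 (adjusted p = 0.0021), and ASRGL1, an asparaginase, by 1.07 ± 0.15 (adjusted p = 0.00091). PCCB, a subunit of the propionyl-CoA carboxylase that brings propionate into gluconeogenesis, fell by 0.95 (SE 0.14, adjusted p = 0.0011).

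The remaining ones that rose were BCKDHB (0.43), ALDH6A1 (0.43), MCCC1 (0.55) and MMUT (0.72). Other genes of the same routes did not pass, among them BCKDHA (-0.26), BCAT2 (-0.12), PCCA (0.07), HIBCH (0.13), MCEE (0.11) and IVD (0.42). HIBADH, of valine breakdown, fell by 0.83, and OAT, the ornithine aminotransferase, fell by 0.39. ALDH6A1, MCCC1 and OAT did not pass on all 10 arrays (adjusted p = 0.0584, 0.0592 and 0.0754 by limma). PCCB and MMUT, which act in turn on propionate, thus lay in opposite directions.

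Steps of gluconeogenesis and glycolysis outside the members moved both ways, with 5 higher and 5 lower of 26 kept genes and a median of -0.04. With all 10 arrays 1 rose and 4 fell. PDK4, a kinase that inhibits pyruvate dehydrogenase, rose by 1.49 ± 0.36 (SE, adjusted p = 0.0130), most on neighboring 3, where it read 11.20 against 9.09 to 9.90 on neighboring 1, 2 and 4, and its other kept probe sets rose by 1.57 and 1.63. It did not pass on all 10 arrays (adjusted p = 0.0891). LDHB, a lactate dehydrogenase subunit, rose by 0.94 ± 0.16 (adjusted p = 0.0024). ALDOC, an aldolase, fell by 0.83 (SE 0.11, adjusted p = 0.0007), and PFKM, a phosphofructokinase subunit, fell by 0.66 (SE 0.15, adjusted p = 0.0109).

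GAPDH, ENO1 and HK1, which act in glycolysis, rose by 0.36, 0.40 and 0.42. PKM, the muscle-type pyruvate kinase, fell by 0.55, PDHA1, a pyruvate dehydrogenase subunit, fell by 0.50, and G6PC3, the ubiquitous glucose-6-phosphatase, fell by 0.43. GAPDH, ENO1, HK1 and PKM did not pass on all 10 arrays (adjusted p = 0.0607, 0.240, 0.509 and 0.0831 by limma), where ENO1 and HK1 differed by 0.24 and 0.17. PKM and PDHA1 both act where pyruvate, the product of SDS, is made or used.

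**Figure D4:**
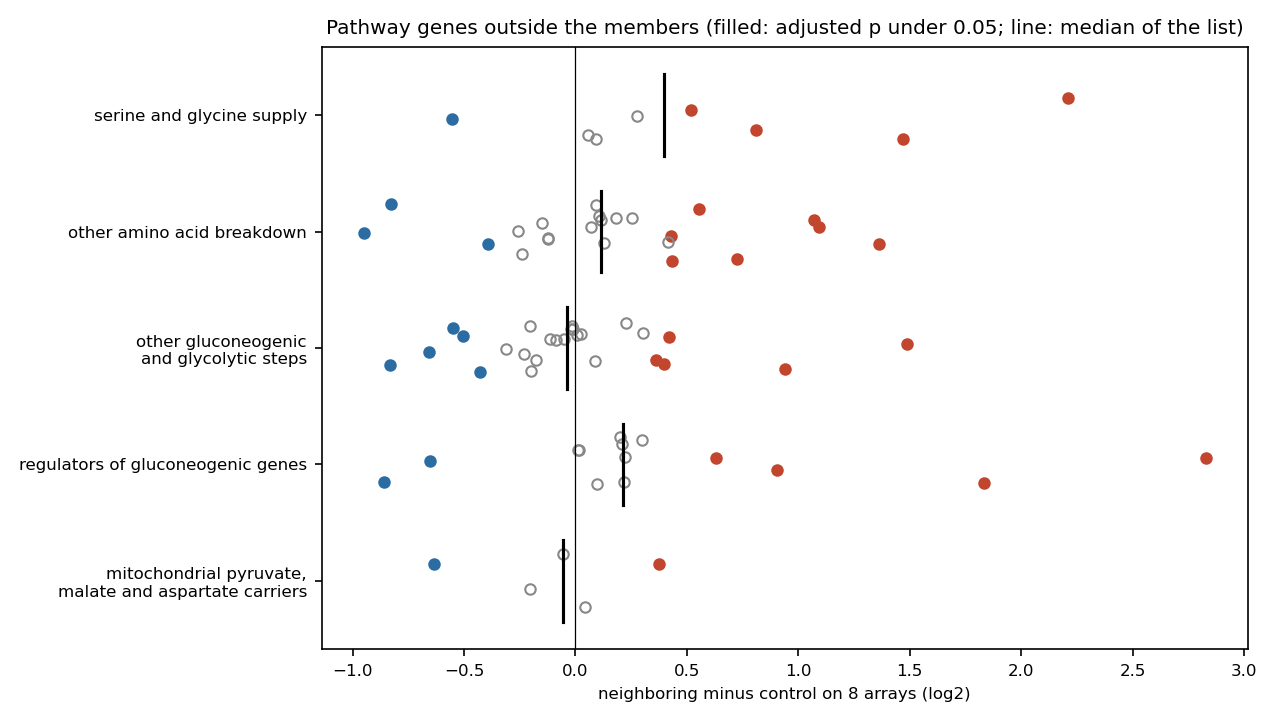
Neighboring minus control on 8 arrays (log2) for the kept genes of the 5 lists outside the members, 1 point per gene; filled points passed an adjusted p under 0.05 by limma (red higher, blue lower), vertical bars are list medians, and vertical scatter only separates points. ATF5 (2.83) and PSPH (2.21) lie farthest to the right, and the medians run from -0.05 for the carriers to 0.40 for serine and glycine supply.

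Regulators of gluconeogenic genes had 4 higher and 2 lower of 14 kept genes, with a median of 0.22, and 3 and 2 on all 10 arrays. ATF5, a transcription factor of the amino acid and mitochondrial stress response, read 10.69 to 11.29 on neighboring 1 to 4, 9.54 on neighboring 5 and 8.11 to 8.64 on the 5 controls. It rose by 2.83 ± 0.14 (SE) or 7.10-fold (adjusted p = 5.6e-06), without overlap on any of the 10 arrays. TRIB3, a pseudokinase induced by that response, rose by 1.83 ± 0.20 (adjusted p = 0.00035), and its neighboring 5 value of 6.85 lay within the controls. ATF4, its central transcription factor, rose by 0.91 ± 0.14 (adjusted p = 0.0018). DDIT3, a further transcription factor of that response, differed by 0.22 ± 0.20 (SE) with overlapping groups and did not pass (adjusted p = 0.408 by limma).

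NR3C1, the glucocorticoid receptor, fell by 0.86 (SE 0.19, adjusted p = 0.0093). PPARGC1A, the coactivator of hepatic gluconeogenic genes, fell by 0.65, and NFIL3, a basic leucine zipper transcription factor, rose by 0.63. NFIL3 did not pass on all 10 arrays (0.43, adjusted p = 0.108 by limma). Of the mitochondrial carriers, 1 of 5 kept rose and 1 fell, with a median of -0.05. MPC2, a subunit of the pyruvate carrier, fell by 0.64 (SE 0.13, adjusted p = 0.0067), and SLC25A1, which carries citrate rather than pyruvate, rose by 0.38 ± 0.12 (adjusted p = 0.0389). On all 10 arrays 0 of the 5 passed by limma, and 1 was under an unadjusted p of 0.05, while control 3 gave the lowest control value of MPC2, 10.65.

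**Figure D5:**
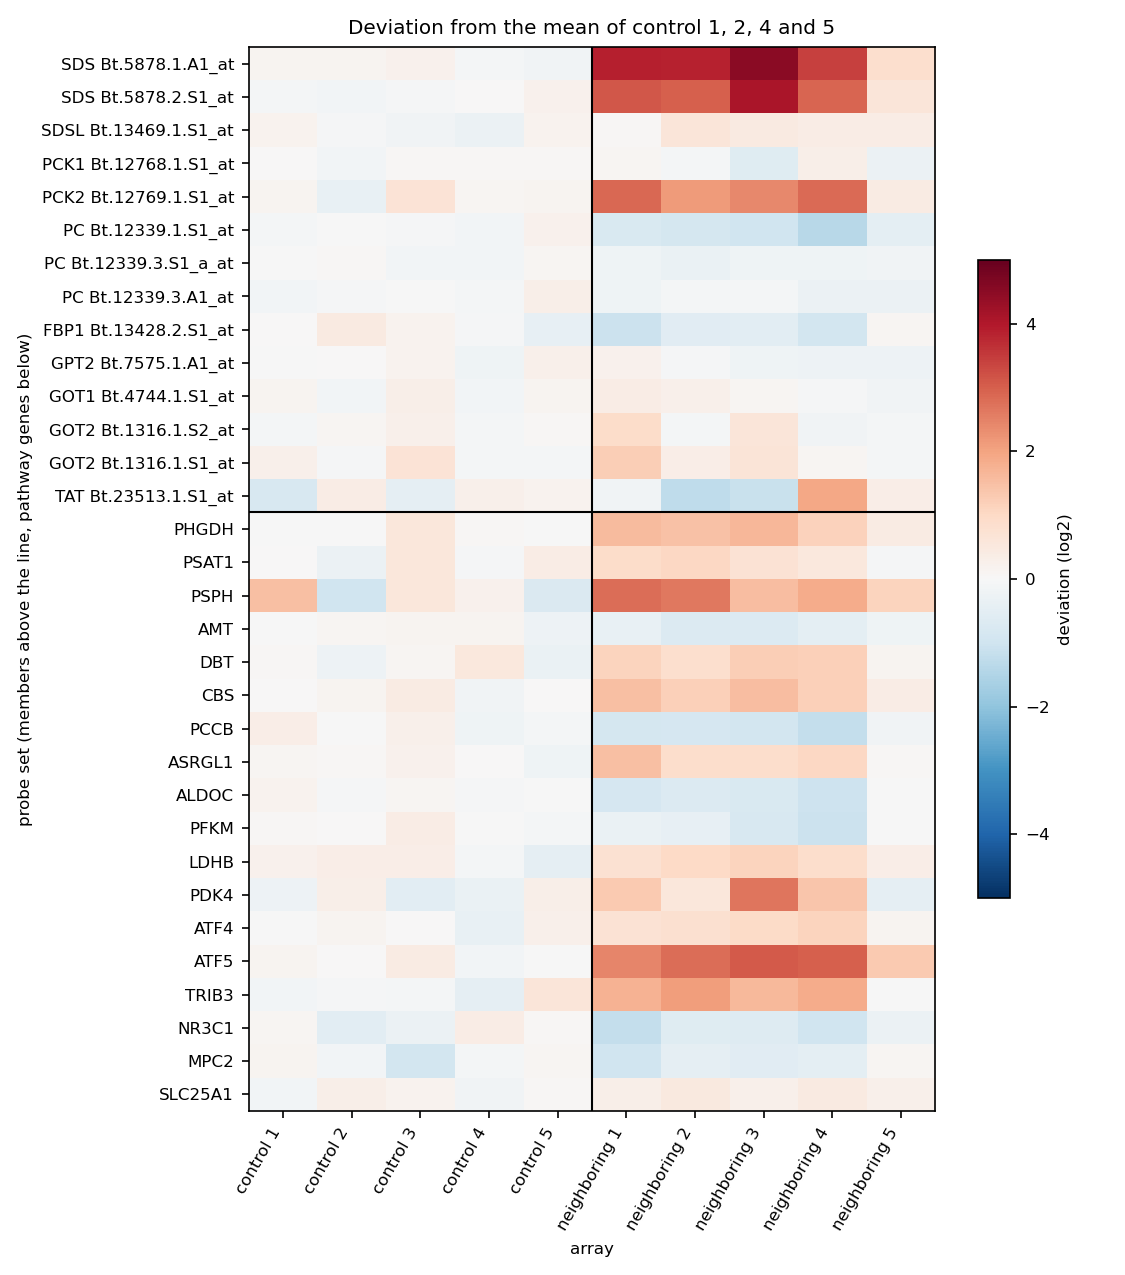
Deviation (log2) of each array from the mean of control 1, 2, 4 and 5, red above and blue below it, for the 14 member probe sets (above the horizontal line) and the 18 pathway genes with the largest differences of their lists. SDS, PCK2 and ATF5 are red on neighboring 1 to 4 and paler on neighboring 5 (0.84, 0.42 and 1.30), PC is blue on all 5 neighboring arrays, and PCK1 and GPT2 show no shared step.

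Markers of the tissue and of other cell types were read beside the members. The mean of 8 markers of mammary secretory epithelium, caseins and alpha-lactalbumin among them, was 12.02 to 12.31 on neighboring 1 to 4 and 11.94 to 12.06 on control 1, 2, 4 and 5. Of the 7 kept, 0 passed by limma and 1, KRT18, was under an unadjusted p of 0.05. The keratins KRT18 and KRT8, the latter under the filter, differed by 0.77 ± 0.34 and 0.50 ± 0.17 (SE), while the other 6 markers lay between -0.19 (BTN1A1) and 0.09 (CSN2). CSN2 on neighboring 5 gave the highest value of all probe sets, 14.86. Differences of markers this bright may be compressed, so they do not show that the epithelium was unchanged. Hepatocytes, in which SDS, PCK1 and TAT are best known, were read by 9 markers. Their mean was 5.88 to 6.11 in neighboring and 6.05 to 6.33 in control tissue, 5 lay under the filter (APOA2, SERPINC1, FGB, CPS1 and F2) and 0 of the other 4 passed by limma, with 1 under an unadjusted p of 0.05. Of 5 kidney tubule markers, with a mean of 5.03 to 5.34 and 5.24 to 5.62, 4 lay under the filter and SLC5A2 fell by 0.40. SLC5A2 did not pass on all 10 arrays (-0.31, adjusted p = 0.0922 by limma).

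The mean of 5 leukocyte markers was 6.83 to 7.09 in neighboring and 7.06 to 7.39 in control tissue. MPO, the neutrophil peroxidase, lay under the filter and CD3E, of T cells, fell by 0.75 on 8 arrays. PTPRC, CSF1R and CD68, the other leukocyte markers with a probe set, did not pass by limma. They differed by -0.29 ± 0.15, -0.07 ± 0.15 and 0.10 ± 0.19 (SE), the last in the other direction. CD3E did not pass on all 10 arrays (-0.52, adjusted p = 0.109 by limma), where neighboring 5 was its highest array at 7.62. The mean of 4 adipocyte markers was 4.76 to 5.07 and 4.92 to 5.35, with ADIPOQ, LEP and CIDEC under the filter, and LIPE, the only one kept, differed by 0.28 ± 0.12 (SE, adjusted p = 0.101). The mean over 6 fibroblast and vessel markers was 8.29 to 8.97 in neighboring and 9.03 to 9.45 in control tissue, COL1A1, COL3A1 and LUM, genes of the connective tissue matrix, fell by 0.70, 0.95 and 1.72. DCN, of the same matrix, differed by -0.09 ± 0.17 (SE), and of the vessel markers PECAM1 differed by 0.49 ± 0.22 (adjusted p = 0.116) and VWF lay under the filter. The part of these cell types in the differences of the members was not tested.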

How the data were processed

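Bovine udder tissue was profiled on the Affymetrix GeneChip Bovine Genome Array (RNA by TRIzol, labelling by MessageAmp II Biotin). Values were deposited as log2 signals from RMA, whose version is not given in the sources used here. RMA corrects background, forces all arrays onto one distribution and combines the probes of each set, which hides a shift common to most transcripts. Depth does not apply to arrays, where precision is set by how many there are. Values ran from 0.968 to 14.9 over 24128 probe sets, and 112 array controls were left out. Of the probe sets, 13318 had 1 symbol, 86 several and 10724 none in the platform annotation, and 13283 of the named ones matched the ARS-UCD2.0 gene table. The brightest kept probe set represented each gene.

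Arrays were grouped by title. A further source field of the control samples reads as neighboring tissue, against their titles and descriptions, and the titles were followed. Each array came from a separate cow, and identical pairs numbered 0. Following the methods of the study, limma 3.58.1 (R 4.3.3; lmFit, eBayes) compared neighboring 1 to 4 with control 1, 2, 4 and 5, without covariates, and Benjamini-Hochberg adjustment ran over 14409 probe sets kept above the lowest 40% by mean, in place of the present calls of the study. Errors of members came from the fit to all 24016 probe sets. The procedure was tested on simulated data. Equal replicate numbers did not pair the samples. Alternatives were other array sets, array weights, scalings, filters, variance models, a hybridization covariate, a replicate block, a stricter threshold and leaving out each array.

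Members and gene lists were chosen with earlier results of these data known. Named were all member probe sets, the up to 4 largest differences that passed in each list, and the 5 probe sets most like SDS and PCK2. No sequences were analysed here.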

Additional observations from a re-analysis of the deposited data

Results flagged for a closer look

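In 82 groups of 5 arrays, of 41 probe sets named above, the gap between the highest or lowest array and its nearest neighbor was set against the range of the group, and a ratio above Dixon's critical value of 0.71 marked an array that stands apart. Chance marks about 1 in 20 groups, and 14 were marked, 9 of them on neighboring 5, 2 in member probe sets. The member values were those of PC on control 5, 7.965 for Bt.12339.1.S1_at and 5.09 for Bt.12339.3.A1_at, each above the other controls. Neighboring 5 stood below the other neighboring arrays for CBS (7.48), TRIB3 (6.85), ANKRD12 (6.08), LONP2 (8.72), 3 probe sets of MTHFD2 (6.64, 6.73 and 7.01), GHITM (10.06) and GARS1 (10.14). Several of these were named for a pattern like that of SDS or PCK2, so their marks are not independent. The pathway genes were named for differences on the 8 arrays, which leave out neighboring 5 and control 3. The rate of 1 in 20 is therefore no yardstick for these groups. Control 3 stood above the other controls for PHGDH (8.77) and ERI1 (7.28) and below them for MPC2 (10.65). Both arrays are those the study had set aside.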

How the results depend on the processing

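Signs were followed for the member probe sets and for the 18 pathway genes with the largest differences of their lists. Of these, no difference that had passed changed sign in any setting that fitted it. Other genes named here were not followed one by one. On 8 arrays 21 pathway genes were higher, 12 were lower and 4283 probe sets passed, and SDS differed by 3.92 and 3.26 and PCK2 by 2.57. On all 10 arrays these were 12 genes higher, 1806 probe sets, 3.26, 2.74 and 2.00. With neighboring 5 put back alone they were 11 and 7 genes, 1190 probe sets, 3.30, 2.73 and 2.14, and array weights gave 2.24 for PCK2. The hybridization covariate left 5 and 0 genes and 251 probe sets passing. The threshold of the study (adjusted p under 0.01 and over 2-fold) left 7 and 0 genes and 398 probe sets. At an unadjusted p under 0.05 by limma, these settings gave 18 and 24 genes higher and 14 and 12 lower. The cause was not tested.

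A replicate block gave 13 and 5 genes and 1481 probe sets on 8 arrays, and 8 and 5 genes, 1161 probe sets, 3.26, 2.74 and 2.00 on all 10. Same-numbered arrays deviated from their group means with correlations from -0.19 to 0.17, and 2 of 10 arrays correlated best with their own number, so the samples share only a number. Leaving out each of the 8 arrays gave 2996 to 4250 probe sets, 17 to 21 genes higher, 10 to 12 lower, 3.72 to 4.08 and 2.995 to 3.39 for SDS and 2.45 to 2.71 for PCK2. SLC25A1 lost its call without any of 6 single arrays. Of the other members, SDSL moved to 0.78 and a GOT2 probe set to -0.07 under the covariate, and a dim PC probe set to -0.16 there and to -0.15 under cyclic loess. The planned search of promoter motifs was not run, since no sequences were used here.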
